A study of Mus musculus with 2 samples.

Results

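The low-UMI nuclear-RNA-rich barcodes of regenerating muscle were chosen by 3 measured values per barcode from 2 droplet single-cell RNA libraries: fewer than 3000 UMIs (unique molecular identifiers, each counting 1 captured RNA molecule), at most 10% of UMIs from mitochondrially encoded (mt-) genes, and Malat1 and Gm42418 together at 100 or more per 10000 UMIs. The limits left 399 of 6724 barcodes. These were 294 of 3290 in the Wt library and 105 of 3434 in the Gata3KO library. The study profiled macrophages of injured muscle in a pair of mouse strains. Wt animals were C57BL/6, and Gata3KO animals were C57BL/6 carrying Cx3cr1-CRE and a floxed Gata3 gene (Gata3fl/fl), in which the Cx3cr1 promoter, active in monocytes, macrophages and microglia, drives the recombinase. Both received cardiotoxin (50 µl of 10 µM, from Naja pallida), a cobra toxin that lyses myofibres, in the tibialis anterior, and 8000 live (Zombie aqua-) Ly6G- CD45+ CD11b+ cells sorted on day 4 were loaded per library (10x Chromium 3' v3). There was 1 library per genotype, and the number of animals behind each is not given in the sources used here, so no test between genotypes was possible. Every interval below is a 95% interval for counting error only. Whether fewer cells of a type or less RNA per cell lies behind a summed value cannot be told apart.

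Malat1 is a long noncoding RNA that stays in the nucleus, in speckles where splicing factors gather, and in single-cell libraries its share of a barcode's RNA is widely read as a sign of how much nuclear against cytoplasmic RNA was captured. Gm42418 and Gm26917 are predicted noncoding genes at a ribosomal RNA annotation of chromosome 17. Lars2 encodes the mitochondrial leucyl-tRNA synthetase, and Slfn4 is a Schlafen family gene of myeloid cells that type I interferon can induce. Cytoplasmic messenger RNAs, such as those of ribosomal proteins, actin or glycolytic enzymes, are exported from the nucleus and translated in the cytoplasm. Macrophages clear dead fibres in injured muscle and move from an inflammatory to a repair state, with lysosome, lipid and iron genes among those they use.

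The sequences of the genes in the rule are shown because they bear on what their UMIs count. In the GENCODE M21 annotation (GRCm38, the same build as mm10), Gm42418 is a lincRNA of 1831 bases on the plus strand, at chr17:39846958-39848788. AY036118, a lincRNA of 923 bases on the minus strand at chr17:39847113-39848035, lies wholly inside it, so that 923 bases are shared on opposite strands. Both sit inside CT010467.1, which is annotated as ribosomal RNA on the minus strand at chr17:39846353-39848827. Gm26917, at chr17:39843013-39846341 on the plus strand, ends 12 bases before that annotation starts. The last 60 bases of AY036118 and the same positions of Gm42418 (chr17:39847113-39847172) are printed with a run of 6 T, and the 6 A opposite it, in capitals.
AY036118: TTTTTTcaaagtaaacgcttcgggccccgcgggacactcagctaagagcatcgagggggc
Gm42418: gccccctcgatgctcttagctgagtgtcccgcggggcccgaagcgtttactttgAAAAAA
Those 6 A are the longest A run of Gm42418, while AY036118 and Gm26917 have none longer than 4. Whether the authors' counting used strand is not given in the sources used here, so UMIs of this overlapping pair may be split between them. Malat1, at chr19:5795690-5802672 on the minus strand, is annotated as a transcript of 6983 bases, and its longest A run, in capitals, has 12 bases and lies 298 bases before its end. It is printed with 20 bases on each side (chr19:5795968-5796019). The kit captures RNA with an oligo-dT primer, which can also anneal to A runs inside a transcript.
Malat1: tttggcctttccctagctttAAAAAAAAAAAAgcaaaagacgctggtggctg
A run of 12 or more A was present in 4.07% of the 141767 annotated transcripts. Which of these positions gave the UMIs was not analysed here.

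Low-UMI nuclear-RNA-rich barcodes were 8.94% of the Wt barcodes (7.98 to 9.96) and 3.06% of the Gata3KO barcodes (2.51 to 3.69), a difference of 5.88 percentage points. Among barcodes with at most 10% mitochondrial UMIs, they were 29.7% in Wt (26.9 to 32.7) and 16.2% in Gata3KO (13.4 to 19.2). They carried 527484 and 182259 UMIs, which were 3.43% and 0.938% of their libraries. Among barcodes under 3000 UMIs, members were 15.8% in Wt (14.2 to 17.6) and 6.26% in Gata3KO (5.15 to 7.53). Wt had the larger share by each denominator. The median barcode held 2616 UMIs in Wt and 3059 in Gata3KO. The mitochondrial share of the median barcode was 15.7% and 21.8%. How depth and the limits bear on these shares was not tested. No member barcode was shared between the libraries, in which 2 barcodes overall coincided. No usable doublet call was had, since the caller marked 0 of 6724 barcodes.

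**Figure D1:**
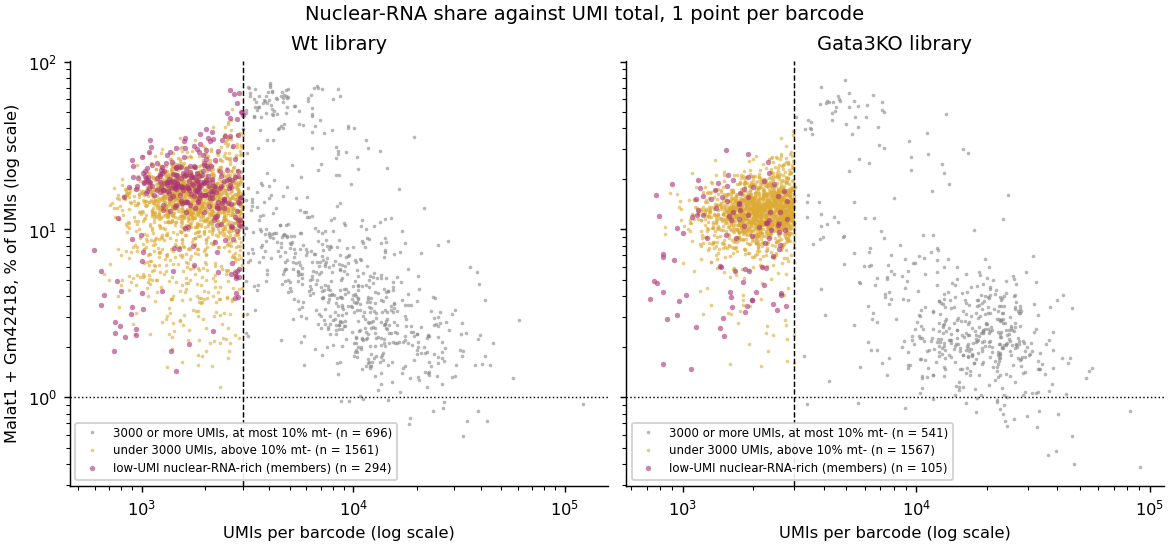
UMIs per barcode (log scale) against the percent of UMIs from Malat1 and Gm42418 together (log scale), 1 point per barcode, in the Wt and Gata3KO libraries. The dashed line is the limit of 3000 UMIs and the dotted line the limit of 100 per 10000. The 399 members lie among the barcodes of like depth with more mitochondrial RNA. The 4 Gata3KO barcodes that the dotted limit left out are not drawn. Barcodes at or above the dashed limit with a mitochondrial share over the limit of the rule are not drawn either.

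The label fits most of these barcodes, with 2 reservations. The limit on Malat1 and Gm42418 did little work: of barcodes under 3000 UMIs with at most 10% mitochondrial UMIs, it left out 0 in Wt and 4 in Gata3KO, so members are in effect all low-UMI, low-mitochondrial barcodes. The 3 Wt members closest above it held 144 to 190 per 10000, and the 4 Gata3KO barcodes under it held 53.5 to 98.1. At the UMI limit Malat1 ran on without a step in Wt, where its median was 5.69% in the 51 members of 2500 to 3000 UMIs and 5.65% in the 41 barcodes of 3000 to 3500. In Gata3KO these medians were 6.39% (15 members) and 6.26% (9 barcodes), but other values there differed more. Gm42418 was 3.41% inside and 6.96% outside, ribosomal protein genes 6.91% and 2.86%, and mitochondrial UMIs 7.14% and 9.12%. The mitochondrial limit also fell in a continuum, with Malat1 at 8.86% in the 58 Wt members just inside and 8.56% in the 57 barcodes just outside, and at 7.32% (23) and 8.37% (19) in Gata3KO.

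Per barcode, members held a median of 1735 UMIs and 869.5 genes in Wt and 1738 UMIs and 906 genes in Gata3KO. Median Malat1 was 9.01% of UMIs in Wt (quartiles 5.93 and 11.1) and 5.95% in Gata3KO (1.64 and 8.99). In the deeper barcodes, those with 3000 or more UMIs and at most 10% mitochondrial UMIs (696 Wt and 541 Gata3KO), it was 2.24% and 1.53%. Median Gm42418 was 7.94% in Wt members and 3.97% in Gata3KO members, against 2.11% and 0.950% in the deeper barcodes. Malat1 and Gm42418 were used by the rule and are given as a description. Gm42418 made up 20% or more of the UMIs in 27 Wt members and in 0 Gata3KO members, and 50% or more in 4 Wt members.

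Of what the rule did not name, the splicing-factor list lay on the same side as Malat1, at a median of 0.993% in Wt members and 0.819% in Gata3KO members against 0.528% and 0.454% in the deeper barcodes. Ribosomal protein genes lay on the other side. Ribosomal protein genes (symbols beginning Rpl or Rps and a number, which include the kinase gene Rps6ka1) made up a median of 4.84% of UMIs in Wt members and 6.91% in Gata3KO members, against 11.6% and 11.8% in the deeper barcodes. Barcodes under 3000 UMIs with more than 10% mitochondrial UMIs (1561 and 1567) held 4.17% and 3.30%, near the members in Wt and below them in Gata3KO. Against these barcodes, 74 of 79 counted ribosomal protein genes were past 1.5-fold higher in Gata3KO members, beside 35.6% of all counted genes. In Wt members 3 of 79 were, beside 17.5%. The median log2 ratios were 1.18 in Gata3KO and 0.32 in Wt, beside 0.36 and 0.28 over all counted genes. Median Malat1 in these barcodes of more than 10% mitochondrial UMIs was 5.55% in Wt, under the 9.01% of members, and 6.86% in Gata3KO. Median Gm42418 in them was 8.05% and 5.39%. The splicing-factor list in them had a median of 0.809% in Wt, under that of members, and 0.862% in Gata3KO, above it. In both libraries these barcodes lay above the deeper ones in Malat1 and Gm42418, as the members did. Barcodes were also thinned to 1000 UMIs, which leaves out those with fewer. After this the median member held 575 genes in Wt and 600.5 in Gata3KO, the deeper barcodes 579 and 589, and the high-mitochondrial barcodes 494 and 493. Of the members left out, 14 in Wt and 11 in Gata3KO held under 2% Malat1, and 12 and 4 held 2% or more. At equal depth, members of 1000 or more UMIs and deeper barcodes thus held similar numbers of genes.

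**Figure D2:**
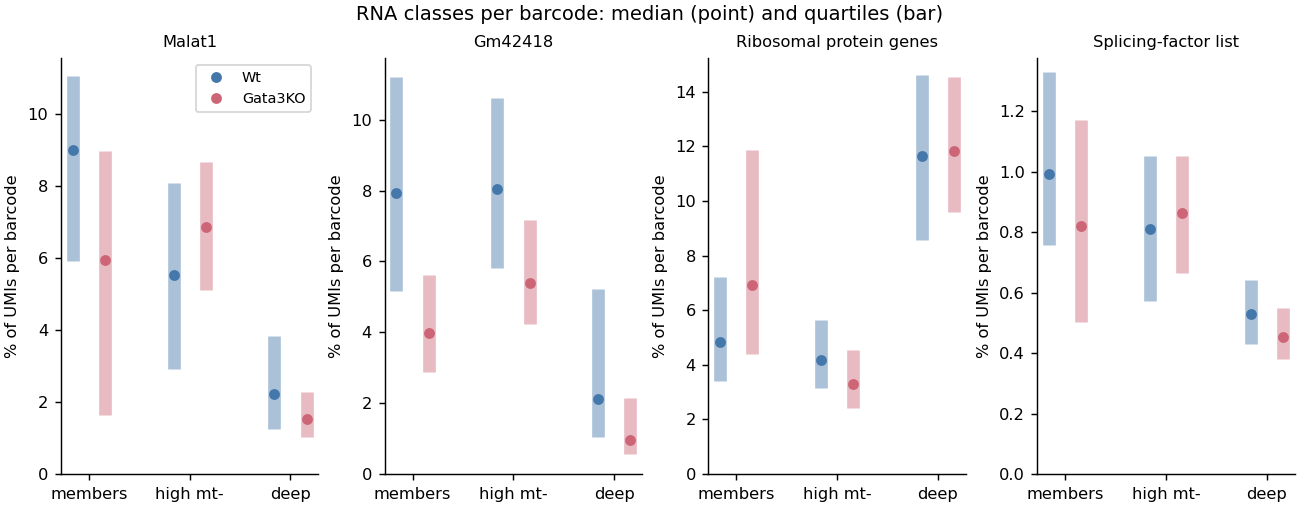
Percent of UMIs per barcode from Malat1, Gm42418, ribosomal protein genes and a list of splicing-factor and other intron-rich mRNAs, in members, in low-UMI barcodes with more than 10% mitochondrial (mt-) UMIs and in deeper barcodes. Points are medians and bars run between the quartiles, with Wt in blue and Gata3KO in red. Median Malat1 is 9.01% and 5.95% in members against 2.24% and 1.53% in deeper barcodes, and ribosomal protein genes lie the other way round.

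The members ranged widely in Malat1, from 0% to 21.9% of UMIs in Wt and from 0.0927% to 19.4% in Gata3KO. A limit of 2% of UMIs, set after the values were seen, put 27 of 294 Wt members (9.18%, 6.14 to 13.1) and 36 of 105 Gata3KO members (34.3%, 25.3 to 44.2) below it, and 13 and 15 members lay between 1.5% and 3%. These Malat1-poor members met the rule mainly through Gm42418, and the label goes against their data. They held median ribosomal protein shares of 11.3% in Wt and 12.2% in Gata3KO, near those of the deeper barcodes, whereas members at or above the limit held 4.51% and 4.83%. Their median mitochondrial share was 6.41% in Wt and 1.48% in Gata3KO, against 7.39% and 7.40% in the others. In Wt they were also shallow, with a median of 936 UMIs and 14 of 27 under 1000, and in Gata3KO the median was 1471.5 UMIs with 11 of 36 under 1000. Splicing-factor list RNA was 4149 CPM (UMIs per 1000000 summed UMIs) in Malat1-poor Wt members and 10598 CPM in the others, and 5004 and 10585 CPM in Gata3KO. The lipid-handling macrophage list was 8442 against 2974 CPM in Wt and 21899 against 8103 CPM in Gata3KO. The skeletal muscle list was 5065 against 702 CPM in Wt and 148 against 180 CPM in Gata3KO.

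**Figure D3:**
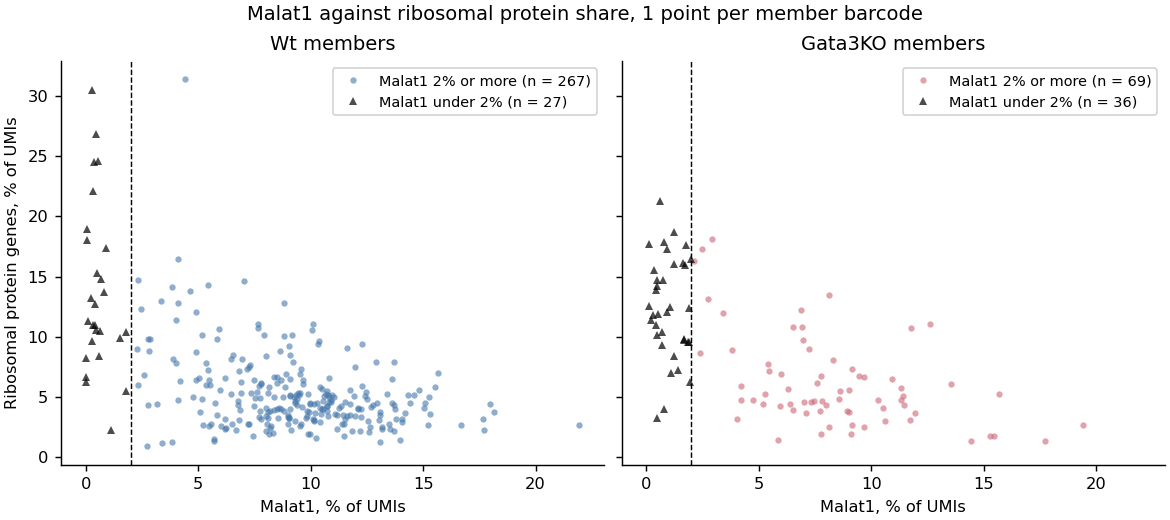
Malat1 against ribosomal protein genes, both as percent of UMIs, 1 point per member barcode, in Wt and Gata3KO. The dashed line marks 2% Malat1, and triangles are the 27 Wt and 36 Gata3KO members below it, most of which lie high on the ribosomal protein axis.

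Across members, Malat1 and Gm42418 did not order the barcodes alike. Spearman's rho between them was 0.22 over 294 Wt members and 0.32 over 105 Gata3KO members (Pearson's r -0.01 and 0.28). Malat1 ran with the splicing-factor list (rho 0.41 and 0.67, r 0.46 and 0.63) and against ribosomal protein genes (rho -0.45 and -0.66, r -0.54 and -0.66). Against ribosomal protein genes ran Gm42418 too (rho -0.57 and -0.39, r -0.39 and -0.39). Its rho with the splicing-factor list was 0.11 in Wt and 0.31 in Gata3KO (r -0.12 and 0.26). Gm42418 ran with AY036118, the gene inside it (rho 0.65 and 0.62; r 0.43 and 0.53). Lars2 gave a rho of 0.44 and 0.49 with Gm42418, and Slfn4 0.23 and 0.22. These are descriptions over barcodes that share a library, and all are shares of the same total.

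Set against the deeper barcodes of their own library, the members' summed RNA differed across much of the transcriptome. These ratios describe what the UMI limit selected and are no test. The limit on Malat1 and Gm42418 added little, since it left out 0 Wt and 4 Gata3KO barcodes. Of 3192 genes counted, those past 1.5-fold higher in members were 30.3% in Wt and 33.7% in Gata3KO, and those past 1.5-fold lower were 30.5% and 21.4%. In both libraries at once, 25% were higher and 18.6% lower. The median over all counted genes was 0.03 on the log2 scale in Wt and 0.18 in Gata3KO.

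Among the named markers, Slfn4 was at 646 CPM in Wt members and 120 CPM in deeper Wt barcodes, a log2 ratio of 2.43 (2.24 to 2.61). In Gata3KO it was at 247 and 28.8 CPM, a log2 ratio of 3.10 (2.61 to 3.56). Its UMIs came from 98 Wt members and 18 Gata3KO members, with at most 18 and 17 in 1 barcode. Gm26917 had log2 ratios of 2.39 in Wt and 3.65 in Gata3KO, and of its 524 UMIs in Gata3KO members, 130 came from 1 barcode. Lars2 was higher by log2 2.12 in Wt (1799 against 412 CPM) and 2.30 in Gata3KO (933 against 189 CPM). AY036118 followed at 1.66 and 1.95. All of these genes lay on the same side in both libraries, and against the high-mitochondrial barcodes of like depth none of the 5 markers was past 1.5-fold higher in either library, beside 17.5% and 35.6% of 3034 genes that were (1.85% and 5.67% were past it lower). Slfn4 lay just under that limit in Wt, at 0.58, and Lars2 in Gata3KO was past it lower, at -0.63.

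The other genes highest in members in both libraries were Fnbp4, Hist1h1d, Paxbp1, Smad7, Siglecg, Fbrsl1 and Nlrp1b. Smad7, an inhibitor of TGF-beta signalling, was at 402 CPM in Wt members against 58.5 CPM in the deeper barcodes (log2 2.78, 2.54 to 3.02) and at 285 against 62.0 CPM in Gata3KO (2.20, 1.76 to 2.61). Fnbp4, a formin-binding protein gene, had ratios of 2.32 and 2.29. Siglecg, an inhibitory sialic acid receptor, had ratios of 2.16 and 3.75 on 69 and 15 UMIs. Hist1h1d, a linker histone gene at 2.43 and 2.27, and Nlrp1b, an inflammasome sensor at 2.15 and 2.19, also lay above their deeper barcodes in both.

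The splicing-factor list and long noncoding genes lay mostly higher, and ribosomal protein, oxidative phosphorylation and cytoskeleton lists lower. Not every other list of mRNA was lower. The early response list had medians of 0.85 in Wt and 0.61 in Gata3KO, and the heat shock list -0.06 and 0.03. Of 21 counted genes of the splicing-factor list, 20 were above 0 in each library, with medians of 0.88 (0.63 to 1.35) and 0.93 (0.769 to 1.198). Of these 21, 15 in Wt and 18 in Gata3KO were past 1.5-fold higher, beside 30.3% and 33.7% of all counted genes. Against the high-mitochondrial barcodes the list's medians were 0.34 and 0.07, beside 0.28 and 0.36 over all counted genes. There 2 of 21 in Wt and 1 of 21 in Gata3KO were past 1.5-fold higher, beside 17.5% and 35.6% of 3034 genes. Srrm2, a scaffold protein of nuclear speckles, was at 1041 against 388 CPM in Wt (1.42, 1.29 to 1.56) and at 686 against 286 CPM in Gata3KO (1.26, 0.99 to 1.52). Neat1, the noncoding RNA that builds paraspeckles, was higher by log2 1.19 in Wt and 1.30 in Gata3KO, whereas Kcnq1ot1 (0.26 and -0.05) was not clear of counting error. The 20 annotated long noncoding genes, a class to which Malat1 and Gm42418 of the rule belong, had medians of 1.14 and 1.23. In each library 13 were past 1.5-fold higher, beside 30.3% and 33.7% of all counted genes. Another 3 were past it lower, beside 30.5% and 21.4%. Against that, 78 of 80 ribosomal protein genes were below 0 in Wt and 76 in Gata3KO (medians -1.09 and -0.68). Nuclear-encoded oxidative phosphorylation genes were below 0 for 47 of 47 and 45 of 47 (-1.21 and -0.81), and cytoskeleton genes for 17 of 17 and 16 of 17 (-1.19 and -0.82). Gapdh, a glycolytic enzyme, was at 292 against 1001 CPM in Wt (-1.78, -2.02 to -1.55) and at 422 against 1410 CPM in Gata3KO (-1.74, -2.08 to -1.42).

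Gene length ordered these ratios. Over 5 bins of gene span in GENCODE M21, the median log2 ratio of members over deeper barcodes ran from -0.78 (-0.83 to -0.70) for spans up to 7.33 kb to 0.79 (0.71 to 0.84) for spans of 67.8 kb and more in Wt. In Gata3KO it ran from -0.46 (-0.53 to -0.39) to 0.84 (0.78 to 0.93). In the shortest bin 11.9% of Wt genes were past 1.5-fold higher, and in the longest 62.0% were. Summed exon length gave the same order, from -0.95 to 0.85 in Wt and from -0.60 to 0.92 in Gata3KO, so span and exon length were not separated. Against the high-mitochondrial barcodes the span bins were nearly level in Wt (0.25 in the shortest and 0.33 in the longest). In Gata3KO they sloped the other way, from 0.80 to 0.19.

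**Figure D4:**
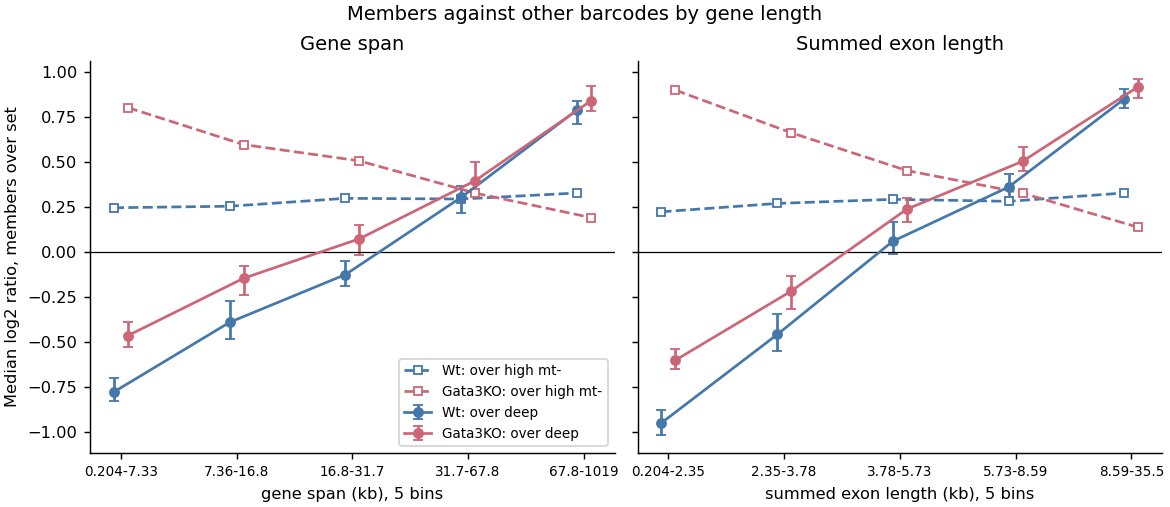
Median log2 ratio of members over deeper barcodes (filled points, with 95% intervals) and over low-UMI barcodes with more than 10% mitochondrial UMIs (open squares), in 5 bins of gene span (left) and summed exon length (right), for Wt (blue) and Gata3KO (red). The filled points climb from -0.78 to 0.79 in Wt and from -0.46 to 0.84 in Gata3KO over the span bins, and the open squares do not climb in this way.

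The summed RNA of members held leukocyte transcripts, which does not show that each barcode was a leukocyte. All 10 genes of the leukocyte and sort list were detected in both libraries. Their summed level was 10544 CPM in Wt members and 15972 CPM in Gata3KO members, below the 18360 and 22796 CPM of the deeper barcodes. Against those, 8 of the 10 were below 0 in Wt (median -0.25) and 5 in Gata3KO (median 0.06). Ptprc, which encodes CD45, was on the other side. It was at 1611 CPM in Wt members and 1240 CPM in Gata3KO members, log2 1.02 and 1.12 above the deeper barcodes. Itgam, which encodes CD11b, was at 131 and 208 CPM. Csf1r, the macrophage growth factor receptor, was at 485 and 510 CPM, within counting error of the deeper barcodes (log2 0.06 and -0.02). Lyz2, a lysozyme gene of myeloid cells, was lower than in the deeper barcodes (log2 -1.75 and -0.88). The macrophage list, with all 12 genes detected in each library, summed to 13170 CPM in Wt members and 17931 CPM in Gata3KO members against 25511 and 33732 CPM in the deeper barcodes. Its median was -0.98 in Wt and -0.82 in Gata3KO, with 8 of 12 genes past 1.5-fold lower in each, beside 30.5% and 21.4% of all counted genes.

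Markers of lymphocytes, neutrophils and stromal cells were few, and those of dendritic cells and, in Wt, skeletal muscle were more abundant. Ly6g, S100a8, Cd3e and Cd79a, defining genes of neutrophils, T cells and B cells, had 0 UMIs in the 268 Wt and 90 Gata3KO members that could be thinned to 1000 UMIs, which allows up to 1.12% and 3.33% of members with a UMI. Other genes of their lists were detected: Csf3r with 66 UMIs in Wt members and 27 in Gata3KO members, Il7r with 32 and 39, and Ighm with 115 and 23. The neutrophil list summed to 142 CPM in Wt and 198 CPM in Gata3KO (5 of 14 genes detected in each), against 81.5 and 97.0 CPM in the deeper barcodes. The T cell list summed to 83.4 and 219 CPM (99.8 and 103 CPM in the deeper barcodes). The B cell list summed to 239 and 176 CPM (166 and 90.7 CPM). Mast cell, red cell and platelet lists had 0 UMIs in both, but only 1 of 8, 1 of 5 and 2 of 4 of their genes were in both count tables. For neutrophils, T cells and B cells these were 8 of 14, 5 of 7 and 3 of 6. The skeletal muscle list summed to 991 CPM in Wt members and 170 CPM in Gata3KO members, against 468 and 312 CPM in the deeper barcodes. The mature dendritic cell list summed to 717 and 593 CPM, and the lists of the conventional dendritic cells 1 and 2 to 548 and 500 CPM in Wt and 466 CPM each in Gata3KO. The fibroblast list summed to 96.7 CPM in Wt members and 21.9 CPM in Gata3KO members against 842 and 566 CPM in the deeper barcodes. Col1a1, a chain of fibrillar collagen, held 14 UMIs in Wt members and 1 in Gata3KO members (log2 -3.33 against the deeper Wt barcodes, -4.20 to -2.58). Col3a1 and Col1a2 were likewise low, and so were the macrophage genes Pf4, Folr2 and Mmp12.

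Clustering of the members alone gave 6 groups (3 and 10 at a lower and a higher resolution), and the genes that lead a group describe it and are no result of it. Group 0 (114 Wt and 17 Gata3KO barcodes) was led by Kctd14, Ccnd1 and Slfn4, had the highest median Malat1 of the 6 groups (9.92%) and was left unnamed. Group 1 (56 and 15) was led by the contractile genes Mylpf, Acta2, Actc1 and Acta1, and it too was left unnamed, with its macrophage list at 21839 CPM against 12578 CPM in the other members. Group 2 (45 and 17) was led by Il1b, the heat shock genes Hspa1a and Hspa1b, and the early response genes Btg2, Egr1 and Fosb. Group 4 (27 and 14) was led by the chemokine gene Cxcl2, Ifrd1, Plk2 and Gdf15. Groups 2 and 4 were unnamed as well, and their early response lists summed to 15884 and 15035 CPM, against 3661 to 5546 CPM in the other 4 groups.

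Group 3 was lipid-handling macrophage-like, with Spp1, Fabp5, Cd63 and Gpnmb among its leading genes. It held 17 of the 294 Wt members and 36 of the 105 Gata3KO members, and by count was the only one of the 6 with more Gata3KO barcodes. Its lipid-handling list summed to 21921 CPM against 3146 CPM in the other members, and that of group 4 to 11199 against 4927 CPM. Group 3 had a median Malat1 of 1.67%, a ribosomal protein share of 10.1% and a mitochondrial share of 2.46%. Of the Malat1-poor members, 7 of 27 in Wt and 28 of 36 in Gata3KO fell in it, while 11 and 5 fell in group 1. Group 5 (35 Wt and 6 Gata3KO) was mature dendritic cell-like, led by Ccl5, Tbc1d4, Il4i1, Cacnb3 and Socs2 with Ccr7, the receptor that guides dendritic cells to lymph nodes. Its mature dendritic cell list summed to 4780 CPM against 174 CPM in the other members, and its MHC class II list to 47378 against 17007 CPM.

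The genotype comparison asks whether loss of Gata3 in Cx3cr1-expressing cells went with other RNA in these barcodes. Gata3 itself had 1 UMI in Wt members and 0 in Gata3KO members. It had 3 and 1 in the deeper barcodes and 2 and 1 in the high-mitochondrial ones, so this depth could not check the deletion, and where the floxed exons lie relative to the counted 3' ends is not given in the sources used here. Cx3cr1, whose promoter drives the recombinase, was at 148 CPM in Wt members and 296 CPM in Gata3KO members (log2 1.003, 0.47 to 1.52). Of 3297 genes counted, 744 (22.6%) were past 1.5-fold higher in Gata3KO members and 373 (11.3%) past 1.5-fold lower, with a median of 0.17 over all. The split depended on the scaling and on depth. With totals that leave out mitochondrial, Malat1, Gm42418 and ribosomal protein UMIs it was 531 higher and 760 lower (median -0.05), and with median-of-ratios scaling 573 and 479 (median 0.06). Members under 2000 UMIs gave 445 higher and 449 lower (median 0.02), and thinning to 1000 UMIs gave 399 and 340 (median 0.09). The differences below are therefore read against the median of all genes.

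Interferon response genes were lower in Gata3KO members. All 34 counted genes of 43 on the list were below 0 and 32 were past 1.5-fold lower, beside 11.3% of all counted genes, and the list's median was -1.33 (-1.58 to -1.13). Their summed level was 10315 CPM in Wt members (10043 to 10593) and 3791 CPM in Gata3KO members (3514 to 4085). Cxcl10, a chemokine that draws T cells, had 173 UMIs in 70 Wt barcodes (328 CPM) and 8 UMIs in 8 Gata3KO barcodes (43.9 CPM), a log2 ratio of -2.90 (-4.14 to -1.89). Isg15, a ubiquitin-like protein, was at 506 and 98.8 CPM (-2.36, -3.13 to -1.67). Irf7, the transcription factor that amplifies type I interferon, was at 1606 and 538 CPM (-1.58, -1.90 to -1.28). Gbp2, a guanylate-binding protein, had 66 UMIs in Wt and 3 in Gata3KO (-2.93, -5.24 to -1.32). Cxcl9, another T cell chemokine, had 68 and 2 (-3.55, -6.63 to -1.65). Genes off the list that were among the lowest were AW112010, with 91 and 2 UMIs (-3.97, -7.04 to -2.08), Trim12a (-2.81) and Ddx60 (-2.70). Gbp7 (-0.14) and Ifih1 (-0.30) were the 2 list genes within 1.5-fold.

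The promoters of list genes are shown as a description of the list. The motif GAAA, any 2 bases, GAAA, the core of the interferon-stimulated response element, was searched on both strands in RefSeq promoters (GRCm38.p6, 250 bases before to 50 after the start). Of the 34 counted interferon genes 28 matched a promoter, and 18 of these (64.3%) held the motif, against 3.99% of 27025 genes in the table. The list was chosen as interferon response genes, so this share describes that choice and bears on no genotype difference. Irf7 and Slfn4 each had 1 promoter, without the motif. Overlapping matches were counted apart. The 3 motif-holding list genes with the highest Wt level were Ifi203 (chr1:173942443-173942742, minus strand), Isg15 (chr4:156200769-156201068, minus strand) and Bst2 (chr8:71537423-71537722, minus strand). Matches are in capitals.
Ifi203: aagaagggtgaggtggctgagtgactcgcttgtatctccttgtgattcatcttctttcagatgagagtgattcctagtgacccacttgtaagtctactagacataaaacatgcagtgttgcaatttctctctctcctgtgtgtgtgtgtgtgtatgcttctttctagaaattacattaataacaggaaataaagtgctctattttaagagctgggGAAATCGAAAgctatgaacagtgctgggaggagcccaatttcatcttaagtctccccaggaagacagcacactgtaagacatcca
Isg15: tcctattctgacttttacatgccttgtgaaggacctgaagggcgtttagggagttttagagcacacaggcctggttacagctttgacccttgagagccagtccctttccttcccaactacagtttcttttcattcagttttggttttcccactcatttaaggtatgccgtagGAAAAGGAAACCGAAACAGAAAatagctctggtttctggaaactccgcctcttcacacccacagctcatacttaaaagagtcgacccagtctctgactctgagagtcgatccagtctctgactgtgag
Bst2: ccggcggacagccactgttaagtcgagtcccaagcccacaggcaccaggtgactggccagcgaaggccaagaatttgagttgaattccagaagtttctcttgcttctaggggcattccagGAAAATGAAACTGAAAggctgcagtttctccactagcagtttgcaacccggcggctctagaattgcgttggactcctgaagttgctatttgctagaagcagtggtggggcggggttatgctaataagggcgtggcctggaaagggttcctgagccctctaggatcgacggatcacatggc
Isg15 held 3 matches that overlap, Bst2 held 2 and Ifi203 1. In the members, Ifi203, a sensor family gene, was at 665 CPM in Wt and 236 CPM in Gata3KO (log2 -1.50, -1.99 to -1.04), and Bst2, which tethers virus particles, at 428 and 230 CPM (-0.89, -1.41 to -0.41). A match describes these letters and shows no binding. Of the 8 counted lipid-handling genes, 6 matched a promoter and 1 held the motif.

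The lower interferon level was seen in each of the 6 groups of members. In group 0 the list summed to 11536 CPM in Wt and 4966 CPM in Gata3KO, in group 1 to 11988 and 2575, and in group 2 to 9132 and 6562. In group 3 it was 9194 and 2252 CPM, in group 4 it was 8666 and 3561, and in group 5 it was 7121 (6492 to 7794) and 5159 (3982 to 6576). The counting intervals of the pair overlapped in group 5 alone. The list's median over Gata3KO and Wt was -1.31 in members with 2% Malat1 or more and -1.23 without group 3. In the deeper barcodes the median was -1.88, with 33 of 33 genes past 1.5-fold lower beside 7.61% of all genes, and in the high-mitochondrial barcodes -1.48, with 28 of 28 beside 8.61%. No test of the difference between these sets was made. Against deeper barcodes, the interferon list of members lay at 0.10 in Wt (-0.14 to 0.38) and 0.67 in Gata3KO (0.31 to 1.13), above all-gene medians of 0.03 and 0.18.

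Slfn4, in the marker list of these barcodes, followed the interferon genes across genotypes. It had 341 UMIs in Wt members and 45 in Gata3KO members (log2 -1.39, -1.87 to -0.94). All 5 counted Schlafen genes were below 0 and 3 were past 1.5-fold lower, beside 11.3% of all counted genes. Slfn1 had a ratio of -1.61 (-2.61 to -0.75) and Slfn8 -0.93, while Slfn2 lay at -0.04 (-0.35 to 0.27).

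**Figure D5:**
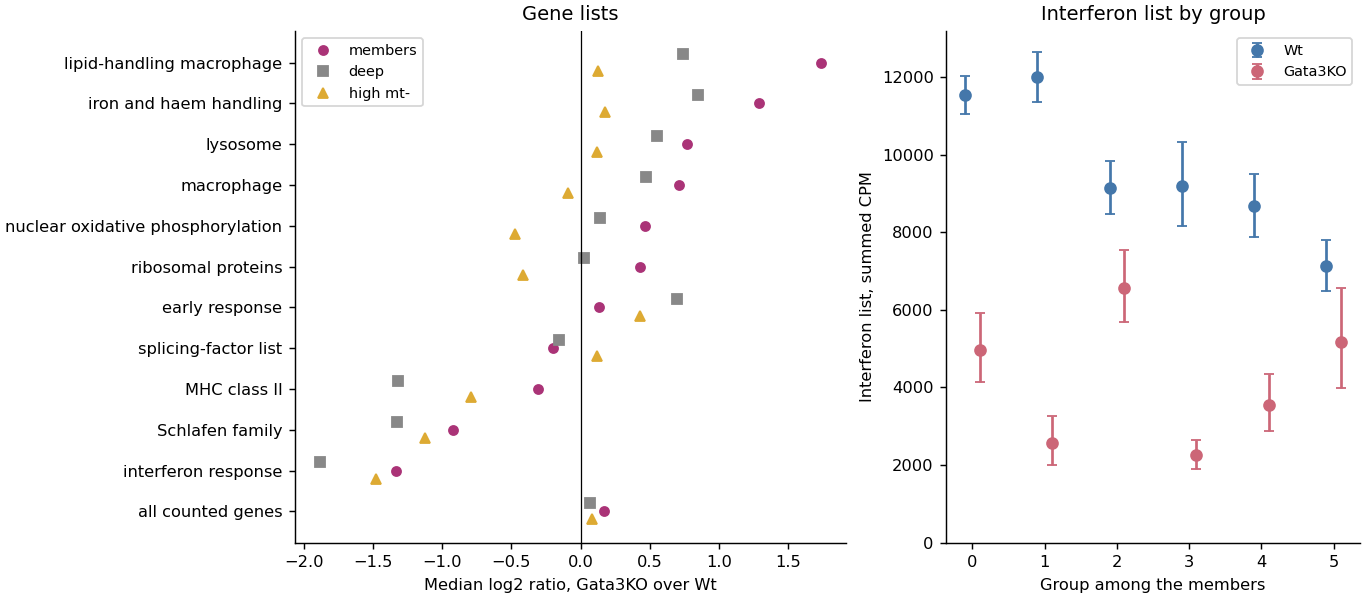
Left, median log2 ratio of Gata3KO over Wt for gene lists and for all counted genes, in members (circles), deeper barcodes (squares) and low-UMI barcodes with more than 10% mitochondrial UMIs (triangles). Right, summed CPM of the interferon list in each of the 6 groups of members with 95% counting intervals, Wt in blue and Gata3KO in red. The interferon list lies at -1.33 in members and the lipid-handling list at 1.74, and each group has its lower interferon level in Gata3KO.

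Lipid-handling macrophage genes were higher in Gata3KO members. All 8 counted genes of 10 were past 1.5-fold higher, beside 22.6% of all counted genes, with a median of 1.74 (1.43 to 2.29). The summed level was 3337 CPM in Wt (3183 to 3496) and 12202 CPM in Gata3KO (11701 to 12720). Spp1, which encodes the secreted matrix protein osteopontin, had 139 UMIs in 69 Wt barcodes (264 CPM) and 391 UMIs in 58 Gata3KO barcodes (2145 CPM), a log2 ratio of 3.03 (2.74 to 3.32). In Gata3KO 79 of those UMIs came from 1 barcode. Gpnmb, a glycoprotein of phagocytic macrophages, was at 229 and 1125 CPM (2.29, 1.96 to 2.63). Fabp5, a fatty acid carrier, was at 428 and 1509 CPM (1.82, 1.56 to 2.08), and Trem2, a lipid-sensing receptor, at 119 and 324 CPM (1.44, 0.90 to 1.97). Without group 3, which holds 17 Wt and 36 Gata3KO barcodes, the list's median was 0.97, and in members with 2% Malat1 or more it was 1.16. In the deeper barcodes it was 0.74, with 6 of 9 genes past 1.5-fold higher beside 7.16% of all genes. In the high-mitochondrial barcodes it was 0.13, with 3 of 8 beside 8.87%.

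Lysosome and iron genes lay on the same side. All 18 counted lysosome genes were above 0 and 13 were past 1.5-fold higher, beside 22.6% of all counted genes, with a median of 0.77 (0.60 to 1.08), or 0.38 without group 3. The cathepsins Ctsd (1005 and 3352 CPM, 1.74), Ctsl (131 and 417 CPM, 1.67) and Ctsb (1913 and 5026 CPM, 1.39) were the highest of them. Of 8 counted iron and haem genes, 7 were past 1.5-fold higher, beside the same 22.6% (median 1.29, or 0.33 without group 3). Ftl1, the ferritin light chain, was at 1651 and 5377 CPM (1.70, 1.57 to 1.84). Hmox1, which breaks down haem, had 14 UMIs in 12 Wt barcodes and 57 in 11 Gata3KO barcodes (3.56, 2.70 to 4.52). Of those 57 UMIs 25 came from 1 barcode, and without group 3 the ratio was 0.72. Medians of ribosomal protein genes (0.43) and nuclear oxidative phosphorylation genes (0.47) were also higher in Gata3KO members, beside 0.17 over all counted genes. Past 1.5-fold higher were 21 of 81 and 19 of 46, beside the same 22.6%. In members with 2% Malat1 or more these medians were 0.20 and -0.02. They were 0.03 and 0.14 in the deeper barcodes, and -0.42 and -0.47 in the high-mitochondrial barcodes. The lysosome and iron medians were 0.55 and 0.85 in the deeper barcodes, and 0.12 and 0.18 in the high-mitochondrial barcodes.

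Other genes highest in Gata3KO members were Chil3, F13a1, Syngr1, Cd36, Pf4, Cfp, Gdf15, Mrc1 and Galc. Chil3, a chitinase-like protein of alternatively activated macrophages, had 1 UMI in Wt and 29 UMIs in 20 Gata3KO barcodes, a log2 ratio of 6.39 whose counting interval ran from 3.80 to 11.74. F13a1, the transglutaminase subunit of coagulation factor XIII, had 8 and 25 UMIs (3.18, 1.98 to 4.54). Cd36, a scavenger receptor for lipids, had 18 and 34 (2.45, 1.59 to 3.36), and Mrc1, the mannose receptor, 35 and 57 (2.24, 1.60 to 2.89). Gdf15, a stress-induced growth factor, was at 91.0 and 466 CPM (2.36, 1.83 to 2.90). Pf4 was at 60.7 and 318 CPM (2.39), or 0.82 without group 3.

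Skeletal muscle transcripts were lower in Gata3KO members. Their list summed to 991 CPM in Wt members (908 to 1080) and 170 CPM in Gata3KO members (116 to 241). Of its 10 genes 4 were counted, and each was under 50 CPM in Gata3KO members, so the filter passed them through Wt. That all 4 were past 1.5-fold lower is therefore no separate result. Mylpf, a fast-fibre myosin light chain, had 159 UMIs in 56 Wt barcodes and 6 in 6 Gata3KO barcodes (-3.19, -4.66 to -2.04), with 50 of the Wt UMIs in 1 barcode. Acta1, skeletal actin, had 147 and 5 (-3.34, -4.99 to -2.09), and Actc1, cardiac actin, 62 and 2 (-3.42). Myl1 had 56 UMIs in Wt and 0 in Gata3KO, at least 6.45-fold lower against a floor of 3 counts over all Gata3KO members. Without group 1 the ratio was -1.83 for Mylpf and -2.27 for Acta1. The high-mitochondrial barcodes held the list at 1279 CPM in Wt and 471 CPM in Gata3KO. The part of free RNA from damaged fibres in these counts was not tested.

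MHC class II genes of members lay mostly within 1.5-fold between genotypes. Of 8 counted genes of the list, 0 were past 1.5-fold higher and 1 lower, beside 22.6% and 11.3% of all counted genes (median -0.31, -0.54 to 0.01). In the deeper barcodes 7 of 8 were lower, beside 7.61% of all genes (median -1.32). In the high-mitochondrial barcodes 5 of 8 were lower and 1 higher, beside 8.61% and 8.87% (median -0.79). The list also holds Cd80 and Cd86, which are not class II genes. Cd74, the invariant chain, was at 6760 and 6798 CPM (0.01, -0.09 to 0.10), and Ciita, the class II transactivator, at 574 and 296 CPM (-0.96, -1.40 to -0.53). The 5 counted mature dendritic cell genes had a median of -0.21, with Ccr7 at 0.50 (-0.28 to 1.25) and Il4i1 at -0.96 (-1.83 to -0.18). Early response genes had 6 of 19 past 1.5-fold higher and 2 lower (median 0.14), near the 22.6% and 11.3% of all counted genes. Ier3 (144 and 412 CPM) was the highest of them. The splicing-factor list lay at -0.20 (-0.32 to 0.00), with 0 of 21 genes past 1.5-fold higher and 3 lower, beside the same shares. Malat1 itself was at 8.40% of summed UMIs in Wt and 6.06% in Gata3KO, and Gm42418 at 11.01% and 4.63%.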

How the data were processed

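Droplet 3' single-cell libraries of sorted muscle CD11b+ cells, 1 per genotype, were analysed from the deposited UMI count tables, which hold raw counts per gene and barcode. Per the submitters' processing notes, the authors used Cell Ranger 3.0.1, R 3.6.1, Seurat 3.0.2 and the mm10 genome. How they filtered barcodes and set the counting options is not given in the sources used here. In all there were 15392330 UMIs in 3290 Wt barcodes and 19422237 in 3434 Gata3KO barcodes.

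UMIs of the members of each library were summed and scaled to CPM, and log2 ratios were given exact conditional binomial intervals (95%), which cover counting error only. Genes were counted with a mean of both libraries at 50 CPM or more and 30 UMIs or more in all, and called past 1.5-fold. List medians used 1 CPM added. Shares have Clopper-Pearson intervals. Members were clustered on 1000 variable genes and 20 principal components (15 neighbours, Leiden resolution 0.6) with scanpy 1.11.5, leidenalg 0.10.2, igraph 0.11.9, scikit-learn 1.9.0, numpy 2.4.6, scipy 1.17.1 and pandas 2.3.3 in Python 3.11.15. Positions and lengths came from GENCODE M21, in which 99.2% of the counted genes matched. Tested on simulated data over 3248 genes for the genotype comparison of members, the interval lay on the right side of 0 for 43.5% of genes changed 1.5-fold, 66.1% changed 2-fold and 100% changed 4-fold.

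Named genes were the 5 markers, Gata3, Cx3cr1, the 12 largest ratios each way between genotypes, the 10 each way against each comparison set, up to 3 each way per list, and genes leading a group. Xist, Y-linked, haemoglobin, immunoglobulin, Gm-numbered and Rik genes were passed over. The members and the lists were chosen with earlier results of these data known.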

Additional observations from a re-analysis of the deposited data

Results flagged for a closer look

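MHC class II genes of the members lay on opposite sides of the deeper barcodes in the 2 libraries. The median log2 ratio of members over deeper barcodes was -0.23 in Wt (3 of 8 genes above 0) and 0.76 in Gata3KO (7 of 8 above 0). The summed level was 21301 CPM in Wt members and 23124 CPM in deeper Wt barcodes, and 17651 and 8941 CPM in Gata3KO, so the deeper Gata3KO barcodes were the lowest of these 4 sets. The difference between the libraries was not tested, since each genotype has 1 library.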

How the results depend on the processing

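No paired analysis was possible because each genotype has 1 library. Of the main values recomputed under other settings, 98 stayed within 1.5-fold of the count or within the counting interval and 38 moved. With fewer than 2000 UMIs, Wt members numbered 189 (5.74% of barcodes, median Malat1 9.50%) and Gata3KO members were 2.10%, with 445 genes higher and 449 lower, and the interferon median was -1.79. With fewer than 4000 UMIs, Wt members were 11.4% and Malat1 8.07%. With at most 5% mitochondrial UMIs, members were 57 in Wt (1.73%, Malat1 8.15%) and 49 in Gata3KO (1.43%, Malat1 1.64%), 271 genes were higher and 185 lower, the interferon median was -2.02, the lipid-handling median 2.82, and Actc1 turned to 0.39. With at most 20%, members were 921 (28.0%, Malat1 7.996%) and 491 (14.3%, Malat1 7.29%), 299 genes were higher and 203 lower, and the lipid-handling median was 0.67. The lipid-handling median was also 0.97 without group 3 and 1.16 with 2% Malat1 or more, both chosen after seeing the data. Totals without mitochondrial, Malat1, Gm42418 and ribosomal protein UMIs gave 760 genes lower. Thinning to 1000 UMIs gave 399 higher and 340 lower, a minimum of 100 CPM gave 343 and 173, and no filter gave 2869 and 1747. Ribosomal protein genes of Wt members over deeper barcodes lay at -1.02 when thinned, -0.93 with those totals and -0.94 with barcodes weighted alike. The causes of these shifts were not tested. Among named genes and lists, 490 values were stable, 102 moved and 1 reversed.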
